A study of Homo sapiens with 18 samples.

Results

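The RNA of 10 genes of the bone morphogenetic protein (BMP) and transforming growth factor beta (TGF-beta) pathways was followed in 2 colorectal cancer cell lines treated with a RAF inhibitor. The genes, selected by name, were the ligands BMP2 and BMP4, the pseudoreceptor BAMBI, the signal carriers and inhibitors SMAD3, SMAD6 and SMAD7, and the targets ID1, ID2, ID3 and ID4. Every probe that the platform annotation assigns to one of these symbols was used, which gave 13 of 47323 probes and 10 of 20046 named genes. ID1, ID2 and SMAD7 had 2 probes each and the other genes had 1.

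The cultures were of HT29 and Colo-205, both established colon cancer lines that the series describes as BRAF mutant, grown as 3D colonies in Matrigel, a gel of basement membrane proteins. The groups were HT29 with 3 µM PLX4720 and HT29 with the solvent DMSO at days 1, 3 and 8, with 2 biological replicates each (12 arrays), and Colo-205 with 3 µM PLX4720 and Colo-205 with DMSO at days 1, 3 and 10, with 1 array each (6 arrays). PLX4720 is a small molecule that inhibits RAF kinases, the activators of MEK and ERK. All cultures were in gel before treatment, which began on culture day 5. The days in the labels were read as days of treatment. Each line was kept in its own serum-containing medium, so that line, medium and BeadChip cannot be told apart in a comparison of levels.

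BMP and TGF-beta ligands are secreted proteins that bring type I and type II receptor kinases together at the cell surface, and the receptors phosphorylate SMAD proteins that enter the nucleus with SMAD4. BMP receptors act through SMAD1, SMAD5 and SMAD9, TGF-beta and activin receptors act through SMAD2 and SMAD3, and ID genes are classical direct targets of the BMP branch. In the intestine, BMP signals favour differentiation towards the top of the crypt, TGF-beta restrains epithelial growth, and colorectal cancers often lose parts of the pathway. HT29 is known to carry a truncating SMAD4 mutation.

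Between 18143 and 19606 probes were above background on an array, the Pearson correlation between replicate HT29 arrays, taken across genes, was 0.986 to 0.991, and the number of arrays limits the precision. Levels below are normalized log2 intensities of 1 probe, on which a difference of 1 is a 2-fold difference, and they are not compared between probes. Differences are log2 values of PLX4720 minus DMSO ± standard error (SE), with p-values from limma adjusted over all genes of the comparison and a threshold of 0.05. A probe was taken as above background at a detection p under 0.01. The ERK-induced phosphatase gene DUSP6 fell in both lines, with differences of -2.36 ± 0.10 in HT29 (mean of days, adjusted p = 7.25e-07) and -2.13 ± 0.17 in Colo-205 (adjusted p = 0.0128). Of 8 epithelial marker genes, 7 were above background on all HT29 arrays and 6 on all Colo-205 arrays. Of these 8, VIL1 (0.69 ± 0.06) and CDX2 (0.98 ± 0.15) rose in the HT29 mean of days, CDX2 with 4 of 6 arrays above background for PLX4720 and 2 of 6 for DMSO, and KRT18 (-1.66 ± 0.16) and KRT8 (-1.32 ± 0.17) fell in Colo-205. Of 12 markers of other cell types, 3 were above background on all HT29 arrays (CD68, ACTA2 and VIM) and 2 on all Colo-205 arrays (CD68 and VIM). Of the same 12, 4 were above background on no HT29 array (PTPRC, CD3E, VWF and PDGFRB) and 5 on no Colo-205 array. The mean level of those 12 genes was 5.30 to 5.51 on HT29 arrays with PLX4720 and 5.09 to 5.32 on those with DMSO, and ACTA2 was higher by 0.85 ± 0.11 in the mean of days. LUM was above background on 3 of 6 HT29 arrays with PLX4720 and none of 6 with DMSO. It was at least 1.36-fold higher and was tested only through its PLX4720 arrays. In Colo-205 the same mean was 5.40 to 5.47 with PLX4720 and 5.38 to 5.48 with DMSO. The part of these marker genes in the results was not tested.

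With the inhibitor, HT29 had less ID1 at all 3 days, less SMAD3 at days 1 and 8, more BMP2 at day 3 but less at day 8, and more BAMBI at day 8. Colo-205 had less ID1 and less BMP4. In HT29, 8 of the 10 genes could be tested, since ID3 and ID4 were above background on none of the 12 arrays. At day 1, 2 of the 8 were lower and none higher, where 22.6% of all genes tested passed in either direction. At day 3, 1 was higher and 1 lower, where 16.5% of all genes passed. At day 8, 1 was higher and 3 were lower, where 16% of all genes passed. In the mean of the 3 days, 1 was higher and 2 were lower, where 32.8% of all genes passed, and the median difference of the 8 genes was -0.05 against -0.005 for all genes. In Colo-205, 9 genes could be tested (all but ID4) and 2 were lower, where 1.37% of all genes passed, and the median of the 9 genes was -0.46 against 0.02 for all genes. Each array measured the RNA of a whole culture, so that fewer cells expressing a gene and less RNA per cell cannot be told apart. The mean of days, the differences between days and the difference between lines use the same arrays as the comparisons of single days.

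**Figure D1:**
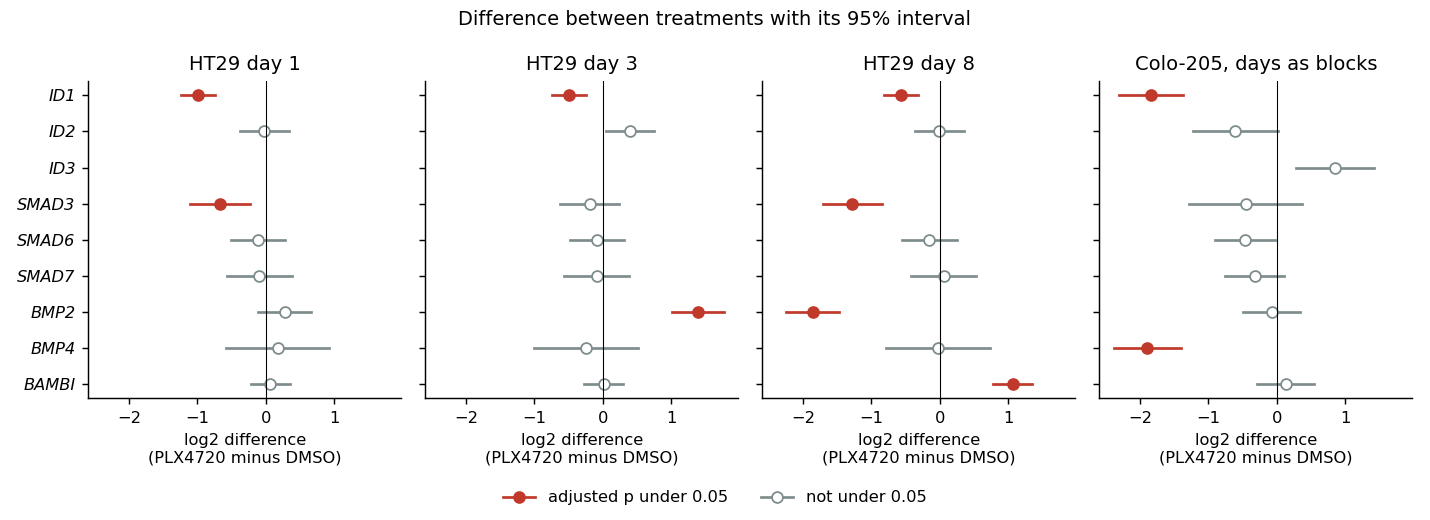
Each row is a gene and each point its log2 difference, PLX4720 minus DMSO, with the 95% interval as a bar, for HT29 at days 1, 3 and 8 and for Colo-205 over its 3 days. Filled points passed an adjusted p of 0.05; ID1 lies left of 0 in all 4 panels, BMP2 lies on the right at HT29 day 3 (1.39) and on the left at day 8 (-1.86), and BMP4 lies away from 0 only in the Colo-205 panel (-1.89). ID3 was not tested in HT29, and the BMP2 point at HT29 day 1 rests on DMSO arrays at background.

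BMP2 encodes a secreted ligand of the BMP branch and lies on chromosome 20 (chr20:6767686-6780246, GRCh38.p14, from RefSeq like all gene positions here). Its probe changed most over time of the 8 tested in HT29, and the sign of the treatment difference turned between days 3 and 8. At day 1 its log2 levels were 4.70 and 5.01 with PLX4720, against 4.75 and 4.41 with DMSO. Only 1 of the 2 arrays with PLX4720 and neither array with DMSO was above background, so the day 1 groups overlapped at the edge of detection and did not pass (adjusted p = 0.286). At day 3 the levels were 6.0 and 6.29 with PLX4720, against 4.65 and 4.86 with DMSO. Both inhibitor arrays lay above both solvent arrays, and BMP2 rose by 1.39 ± 0.17 (adjusted p = 0.0011). At day 8 the levels were 6.68 and 6.83 with PLX4720, against 8.59 and 8.63 with DMSO. The order of the groups was now the other way round, without overlap, and BMP2 was lower with the inhibitor (-1.86 ± 0.17, adjusted p = 0.000129).

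BMP2 increased from day 1 to day 8 in both treatments. The increase over these days was 1.90 ± 0.17 with PLX4720 (adjusted p = 0.000161) and at least 15.5-fold with DMSO (adjusted p = 5.35e-07), where the day 1 arrays were at background. Ordered by mean level, DMSO day 8 stood highest, then PLX4720 day 8 and PLX4720 day 3, while PLX4720 day 1, DMSO day 3 and DMSO day 1 overlapped at the bottom. The treatment effect at day 8 was below that at day 1 (adjusted p = 0.000725), but its size has no exact value, since the day 1 effect rests on a DMSO group at background. In that comparison 16% of all genes and 2 of the 8 members passed. The mean over the days, in which the signs are opposed and day 1 is near background, did not pass (-0.06 ± 0.10, 95% interval -0.29 to 0.16, adjusted p = 0.672). Without background correction the day 3 difference was 0.44 (adjusted p = 0.00176) and the mean of days was -0.24 (adjusted p = 0.00151). The size of the BMP2 differences thus depends on how the background of this dim probe is treated. In Colo-205 the probe was above background only at day 10, with 5.13 for PLX4720 against 5.38 for DMSO, and the other 4 arrays lay between 4.26 and 4.33. The Colo-205 difference was -0.07 ± 0.17 (95% interval -0.49 to 0.34, adjusted p = 0.874).

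BMP4, the other BMP ligand of the list and closely related to BMP2 in sequence, lies on chromosome 14 (chr14:53949736-53956891). Its treatment effect differed between the lines. In Colo-205 its level with PLX4720 was 6.56, 7.20 and 7.51 at days 1, 3 and 10, against 8.33, 8.81 and 9.80 with DMSO. Every inhibitor array lay below every solvent array, and the difference over the days was -1.89 ± 0.20 (95% interval -2.39 to -1.40, adjusted p = 0.0241). With 1 array per group, this test treats the days as replicates of 1 effect. The call was lost without day 1 (-1.95, adjusted p = 0.0854) and without day 3 (-2.03, adjusted p = 0.155), where the difference was no smaller.

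In HT29 the BMP4 levels were 8.66 and 8.87 with PLX4720 at day 1, against 8.79 and 8.39 with DMSO. At day 3 they were 8.73 and 8.66 with PLX4720, against 9.06 and 8.82 with DMSO. At day 8 they were 8.24 and 8.40 with PLX4720, against 8.98 and 7.72 with DMSO. The groups overlapped at days 1 and 8, where the day 8 solvent replicates were the farthest apart of any pair for this gene. The mean of days was -0.03 ± 0.19 (95% interval -0.47 to 0.40, adjusted p = 0.919). The treatment effect was lower in Colo-205 than in HT29 (-1.86 ± 0.31, adjusted p = 0.00353), in a comparison that 3.98% of all genes and 2 of 9 members passed. Over days 1 and 3 alone, which both lines share, it was -1.65 (adjusted p = 0.00501). Between days 8 and 1 of the solvent cultures BMP4 differed by -0.24 ± 0.34 (adjusted p = 0.601), and without the first DMSO replicate of day 8 by -0.87 (adjusted p = 0.0109).

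The sequence upstream of the first of 3 BMP4 start sites listed in the table used is shown because BMP4 is 1 of the 2 genes called in Colo-205. It spans chr14:53955051-53955300 on the minus strand, from RefSeq on GRCh38.p14, written 5′ to 3′ up to the base before the start site. Capitals mark the only match to the motifs searched, GGCGCC, a GC-rich element that SMAD proteins of the BMP branch can bind, 232 bases before the start site.
BMP4 upstream: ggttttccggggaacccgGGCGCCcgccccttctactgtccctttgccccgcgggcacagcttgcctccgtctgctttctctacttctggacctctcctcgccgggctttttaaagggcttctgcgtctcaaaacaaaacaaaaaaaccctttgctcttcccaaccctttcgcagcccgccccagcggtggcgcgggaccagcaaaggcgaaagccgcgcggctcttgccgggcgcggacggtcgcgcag

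BAMBI encodes a membrane protein that resembles a type I receptor but has no kinase domain, and it dampens BMP, activin and TGF-beta signals. It lies on chromosome 10 (chr10:28677521-28682932). In HT29 its levels at day 1 were 6.30 and 6.34 with PLX4720, against 6.34 and 6.16 with DMSO. At day 3 they were 6.72 and 6.81 with PLX4720, against 6.72 and 6.79 with DMSO. At day 8 they were 7.30 and 7.55 with PLX4720, against 6.40 and 6.33 with DMSO. The groups overlapped at days 1 and 3 and were separate at day 8, when BAMBI was the only member called higher.

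The BAMBI difference was 0.07 ± 0.13 at day 1 (95% interval -0.22 to 0.35, adjusted p = 0.755), 0.01 ± 0.13 at day 3 (95% interval -0.27 to 0.30, adjusted p = 0.96) and 1.07 ± 0.13 at day 8 (adjusted p = 0.000577). The effect at day 8 exceeded that at day 1 by 1.00 ± 0.18 (adjusted p = 0.00621). From day 1 to day 8, BAMBI rose by 1.11 ± 0.13 with PLX4720 (adjusted p = 0.000566) and differed by 0.11 ± 0.13 with DMSO (adjusted p = 0.533). Its mean of days was 0.38 ± 0.07 (adjusted p = 0.00365). Without background correction BAMBI kept these calls at smaller sizes: 0.59 at day 8 (adjusted p = 9.88e-05), 0.56 between the day effects (adjusted p = 0.00406), 0.60 over time with PLX4720 and 0.21 in the mean of days.

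In Colo-205 the BAMBI levels were 12.02, 11.46 and 11.19 with PLX4720 at days 1, 3 and 10, against 11.71, 11.42 and 11.15 with DMSO. They declined over the days in both treatments, and at days 3 and 10 the 2 arrays of a day lay close together. The difference was 0.13 ± 0.17 (95% interval -0.28 to 0.54, adjusted p = 0.751), and the difference between the lines in the treatment effect was -0.25 ± 0.27 (95% interval -0.82 to 0.31, adjusted p = 0.71).

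The BAMBI upstream window is shown because it holds more matches to GGCGCC than any other window held for these genes. It spans chr10:28677271-28677520 on the plus strand, and capitals mark the 3 matches, which begin 209, 196 and 181 bases before the start site.
BAMBI upstream: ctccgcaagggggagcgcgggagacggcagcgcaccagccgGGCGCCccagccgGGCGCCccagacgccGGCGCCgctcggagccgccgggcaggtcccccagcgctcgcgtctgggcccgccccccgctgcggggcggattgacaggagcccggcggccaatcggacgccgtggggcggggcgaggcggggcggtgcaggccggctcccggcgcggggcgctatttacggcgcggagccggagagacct

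SMAD3 carries TGF-beta and activin signals to the nucleus, and its gene lies on chromosome 15 (chr15:67065602-67195169). In HT29 it was lower with the inhibitor at days 1 and 8. At day 1 its levels were 8.39 and 8.04 with PLX4720, against 8.64 and 9.14 with DMSO. At day 3 they were 8.52 and 8.57 with PLX4720, against 8.60 and 8.87 with DMSO. At day 8 they were 8.66 and 8.69 with PLX4720, against 9.84 and 10.06 with DMSO. The inhibitor arrays lay below the solvent arrays at each of the 3 days, narrowly at day 3 and by more than 1 log2 unit at day 8.

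The SMAD3 difference was -0.67 ± 0.19 at day 1 (adjusted p = 0.0346), -0.19 ± 0.19 at day 3 (95% interval -0.63 to 0.24, adjusted p = 0.554), -1.28 ± 0.19 at day 8 (adjusted p = 0.00211) and -0.71 ± 0.11 in the mean of days (adjusted p = 0.00126). The day 1 call was lost under 9 of 23 alternative settings. Among them were fits without the second PLX4720 replicate (-0.49, adjusted p = 0.185) or the second DMSO replicate of day 1 (-0.42, adjusted p = 0.191), and without any one of the 4 PLX4720 arrays of days 3 and 8 (adjusted p = 0.0517 or 0.0518). From day 1 to day 8, SMAD3 differed by 0.46 ± 0.19 with PLX4720 (adjusted p = 0.145) and rose by 1.06 ± 0.19 with DMSO (adjusted p = 0.00191). The effects at days 8 and 1 differed by -0.61 ± 0.27 (95% interval -1.22 to 0.01, adjusted p = 0.169). In Colo-205 the levels with PLX4720 were 8.61, 8.47 and 8.43 at days 1, 3 and 10, against 8.42, 8.58 and 9.87 with DMSO. The day 10 solvent array stood apart from the other 5, and the difference over the days was -0.46 ± 0.33 (95% interval -1.28 to 0.37, adjusted p = 0.537). Without day 10 it was 0.04 (adjusted p = 0.944).

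SMAD6 and SMAD7 are the inhibitory SMADs, which block receptors and are themselves induced by the pathway. SMAD6 lies near SMAD3 on chromosome 15 (chr15:66702236-66782849). No SMAD6 or SMAD7 difference passed the threshold in either line. SMAD6 had 9.74 and 9.48 with PLX4720 at day 1, against 9.84 and 9.60 with DMSO. At day 3 it had 9.63 and 9.65 with PLX4720, against 9.72 and 9.73 with DMSO. At day 8 it had 9.80 and 9.70 with PLX4720, against 10.15 and 9.65 with DMSO. The groups overlapped at days 1 and 8, and the mean of days was -0.11 ± 0.10 (95% interval -0.34 to 0.11, adjusted p = 0.431). In Colo-205 SMAD6 had 7.27, 8.31 and 8.25 with PLX4720 at days 1, 3 and 10, against 7.69, 8.57 and 8.96 with DMSO. It was lower with the inhibitor within each day, with a difference of -0.47 ± 0.18 (95% interval -0.90 to -0.03, adjusted p = 0.26).

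SMAD6 was the only 1 of the 9 genes with an upstream window in RefSeq whose windows held GTCTAGAC, a palindrome that SMAD3 and SMAD4 can bind, and the window is shown for it. It spans chr15:66701986-66702235 on the plus strand, and the match, in capitals, begins 12 bases before the start site. Of 35116 windows of 250 bases upstream of annotated start sites, 0.182% hold this palindrome.
SMAD6 upstream: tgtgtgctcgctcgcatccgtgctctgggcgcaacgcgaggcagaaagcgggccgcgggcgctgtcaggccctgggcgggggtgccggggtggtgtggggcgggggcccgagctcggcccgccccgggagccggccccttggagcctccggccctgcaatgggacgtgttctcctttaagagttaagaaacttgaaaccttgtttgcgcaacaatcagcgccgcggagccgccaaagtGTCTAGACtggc

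SMAD7 lies on chromosome 18 (chr18:48919853-48950965) and was measured by 2 probes. The brighter one, used for the gene, read 5.90 to 6.62 on the HT29 arrays with PLX4720, against 5.84 to 6.51 with DMSO. The groups overlapped, and the mean of days was -0.04 ± 0.12 (95% interval -0.32 to 0.23, adjusted p = 0.821). The second probe gave 0.18 ± 0.21 (95% interval -0.29 to 0.65, adjusted p = 0.593 over all probes), with the opposite sign. In Colo-205 the brighter probe read 6.04, 5.96 and 6.44 with PLX4720 at days 1, 3 and 10, against 6.48, 6.43 and 6.50 with DMSO. The difference was -0.32 ± 0.18 (95% interval -0.76 to 0.11, adjusted p = 0.406).

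The ID genes encode helix-loop-helix proteins that lack a DNA-binding region, pair with E proteins and keep them from binding DNA. ID1 had the smallest adjusted p of the 8 genes tested in the HT29 mean of days and was called at every HT29 day and in Colo-205. It lies on chromosome 20 (chr20:31605289-31606510). At day 1 its levels in HT29 were 9.74 and 9.79 with PLX4720, against 10.80 and 10.72 with DMSO. At day 3 they were 9.94 and 9.92 with PLX4720, against 10.46 and 10.38 with DMSO. At day 8 they were 9.83 and 9.66 with PLX4720, against 10.31 and 10.32 with DMSO. All 6 inhibitor arrays lay below all 6 solvent arrays, and the replicates of a group lay close together.

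**Figure D2:**
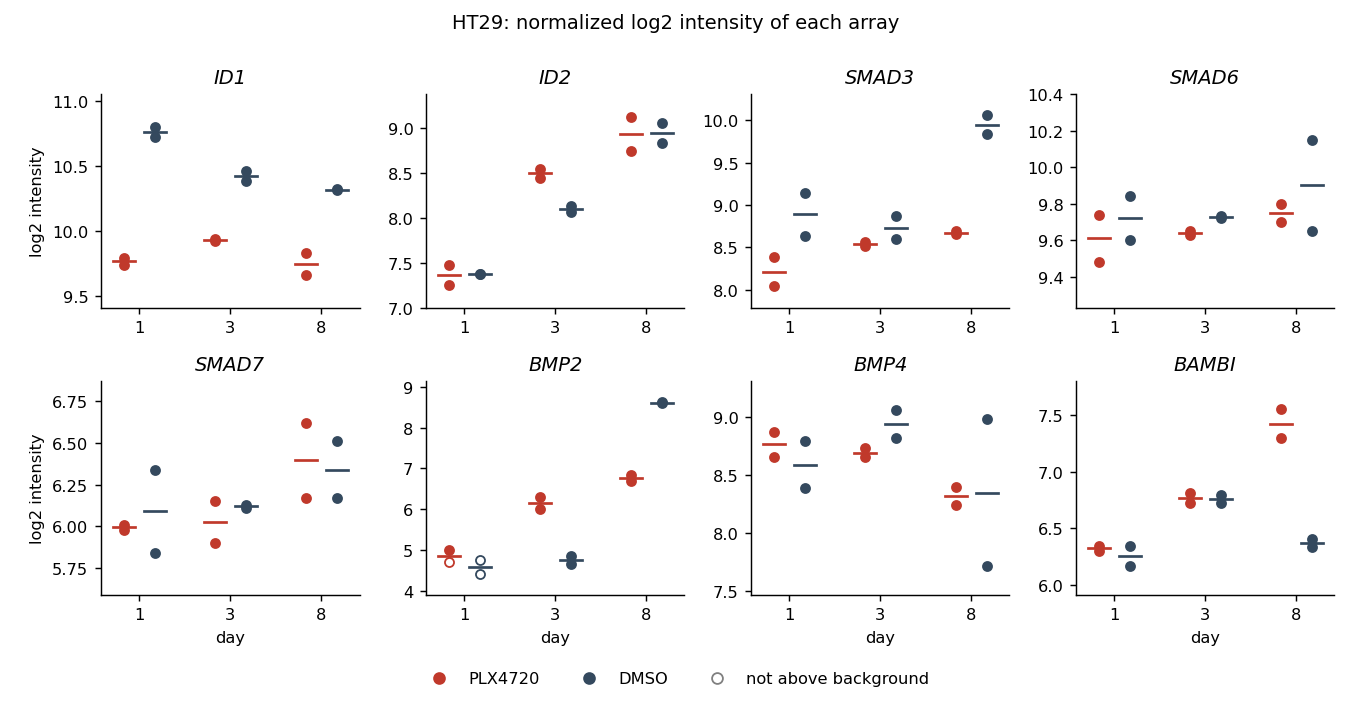
Each panel plots the normalized log2 intensity of 1 gene on the 12 HT29 arrays against the day, with PLX4720 left of DMSO, horizontal lines at the group means and open circles for arrays not above background. The ID1 arrays with PLX4720 (9.66 to 9.94) stay below those with DMSO (10.31 to 10.80) at each day, BMP2 changes order between days 3 and 8, BAMBI separates at day 8, and ID2 increases over the days in both treatments.

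The ID1 difference was -1.0 ± 0.11 at day 1 (adjusted p = 0.000379), -0.49 ± 0.11 at day 3 (adjusted p = 0.0172) and -0.57 ± 0.11 at day 8 (adjusted p = 0.00818). The mean of days was -0.69 ± 0.06 (adjusted p = 6.6e-05). The day 3 call was lost without any one of the 4 arrays of that day (-0.53 to -0.45, adjusted p = 0.0638 to 0.114), and the day 8 call without the second PLX4720 replicate (-0.48, adjusted p = 0.0741). The effects at days 8 and 1 differed by 0.43 ± 0.16 (95% interval 0.08 to 0.78, adjusted p = 0.0988). Over the same days ID1 fell in the solvent cultures. From day 1 to day 8, ID1 differed by -0.02 ± 0.11 with PLX4720 (adjusted p = 0.932) and by -0.45 ± 0.11 with DMSO (adjusted p = 0.00984; -0.40 and 0.054 without the first DMSO replicate of day 1).

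In Colo-205 the ID1 levels with PLX4720 were 7.73, 8.66 and 8.19 at days 1, 3 and 10, against 9.93, 10.26 and 9.91 with DMSO. Every inhibitor array lay below every solvent array, and the differences within a day were -2.20, -1.60 and -1.72. Over the days ID1 fell by 1.84 ± 0.19 (95% interval -2.31 to -1.37, adjusted p = 0.0239). The call was lost without day 1 (-1.66, adjusted p = 0.077) and without day 3 (-1.96, adjusted p = 0.155). This effect was lower in Colo-205 than in HT29 (-1.15 ± 0.18, adjusted p = 0.00251), and by as much over days 1 and 3 alone (-1.15, adjusted p = 0.0255).

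ID1 had a second, dimmer probe. In HT29 it read 5.48 to 6.33 with PLX4720, against 6.25 to 6.95 with DMSO, and on its own it fell by 0.60 ± 0.15 in the mean of days (adjusted p = 0.0183 over all probes). This probe passed at no single HT29 day. Its differences were -0.62 at day 1 (adjusted p = 0.154), -0.83 at day 3 (adjusted p = 0.0756) and -0.35 at day 8 (adjusted p = 0.466). At day 8 its groups overlapped. In Colo-205 it was above background on 3 of 6 arrays and read 5.40, 4.76 and 4.42 with PLX4720 at days 1, 3 and 10, against 5.03, 5.73 and 4.63 with DMSO. At day 3, where both arrays were above background, the difference was -0.97. The day 1 array with PLX4720 and both day 10 arrays were not above background. The difference over the days, -0.27 ± 0.28 (adjusted p = 0.692 over all probes), thus rests largely on background. With the mean of both probes the Colo-205 difference was -1.05 (adjusted p = 0.0626) and the difference between lines -0.41 (adjusted p = 0.286).

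The ID1 upstream window is shown because ID1 was called in both lines. It spans chr20:31605039-31605288 on the plus strand, and capitals mark 2 overlapping matches to the TATA box letters TATAAA, 1 on each strand, which begin 33 and 31 bases before the start site.
ID1 upstream: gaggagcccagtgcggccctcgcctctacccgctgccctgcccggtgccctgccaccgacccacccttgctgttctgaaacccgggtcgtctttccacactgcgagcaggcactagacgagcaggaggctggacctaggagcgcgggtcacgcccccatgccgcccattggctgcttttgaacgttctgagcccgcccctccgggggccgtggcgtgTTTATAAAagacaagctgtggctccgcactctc
The motifs were searched on both strands of each window, and no match of one overlapped a match of another. The element GGCGCC was held by 16.4% of all 35116 windows. The AP-1 site, which is TGACTCA, was held by 4.2% of these windows. The EGR1 site, which is GCGTGGGCG, was held by 0.72% of the windows and by none of the windows of these genes. The TATA box letters were held by 10.7% of the windows. Of the genes whose windows are not shown, SMAD3 held 2 matches to the GC-rich element and 1 to the AP-1 site upstream of different start sites, and ID4 and SMAD7 each held 1 match to the TATA box letters. A match is a stretch of letters and not a measured binding site.

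ID2 rose over time in HT29 in both treatments and passed in no treatment comparison. It lies on chromosome 2 (chr2:8682056-8684461). Its levels in HT29 were 7.25 and 7.47 with PLX4720 at day 1, against 7.38 and 7.38 with DMSO. At day 3 they were 8.44 and 8.55 with PLX4720, against 8.13 and 8.07 with DMSO. At day 8 they were 8.74 and 9.13 with PLX4720, against 9.06 and 8.83 with DMSO. The groups overlapped at days 1 and 8 and were separate at day 3. ID2 rose from day 1 to day 8 by 1.58 ± 0.16 with PLX4720 (adjusted p = 0.000279) and by 1.56 ± 0.16 with DMSO (adjusted p = 7.54e-05). Over these days 3 of 8 members were called higher and none lower with PLX4720, where 16.1% of all genes passed, and 3 were higher and 1 lower with DMSO, where 42.4% passed.

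The ID2 treatment difference was 0.40 ± 0.16 at day 3 (95% interval 0.04 to 0.75, adjusted p = 0.121) and 0.12 ± 0.09 in the mean of days (95% interval -0.08 to 0.33, adjusted p = 0.337). The second probe gave 0.26 ± 0.15 in the mean of days (adjusted p = 0.251 over all probes) and also rose over time in both treatments. In Colo-205 the probe used there, which is the second one of HT29, read 8.17, 8.40 and 8.13 with PLX4720 at days 1, 3 and 10, against 8.49, 8.62 and 9.41 with DMSO. It was lower within each day, with a difference of -0.61 ± 0.25 (95% interval -1.23 to 0.02, adjusted p = 0.294). The probe used for HT29 was also lower within each Colo-205 day, with a smaller difference of -0.36 ± 0.18 (adjusted p = 0.392 over all probes).

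ID3 and ID4 were not above background on any HT29 array. ID3 lies on chromosome 1 (chr1:23557926-23559501). It read 4.25 to 4.78 on HT29 arrays with PLX4720 and 4.15 to 4.29 on those with DMSO, all below detection. In Colo-205 it was above background on all 6 arrays, with 6.80, 7.33 and 6.96 for PLX4720 at days 1, 3 and 10, against 6.51, 6.27 and 5.77 for DMSO. Every inhibitor array lay above every solvent array, the opposite order to ID1 on the same arrays. The difference of 0.85 ± 0.23 (95% interval 0.29 to 1.42) did not pass (adjusted p = 0.148). The difference between lines was 0.63 ± 0.22 (adjusted p = 0.136), and without Colo-205 day 1 it was 0.91 (adjusted p = 0.0252). Since HT29 had no level above background, that comparison sets a measured gene against background. ID4 (chr6:19837370-19842197) was above background on none of the 18 arrays.

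**Figure D3:**
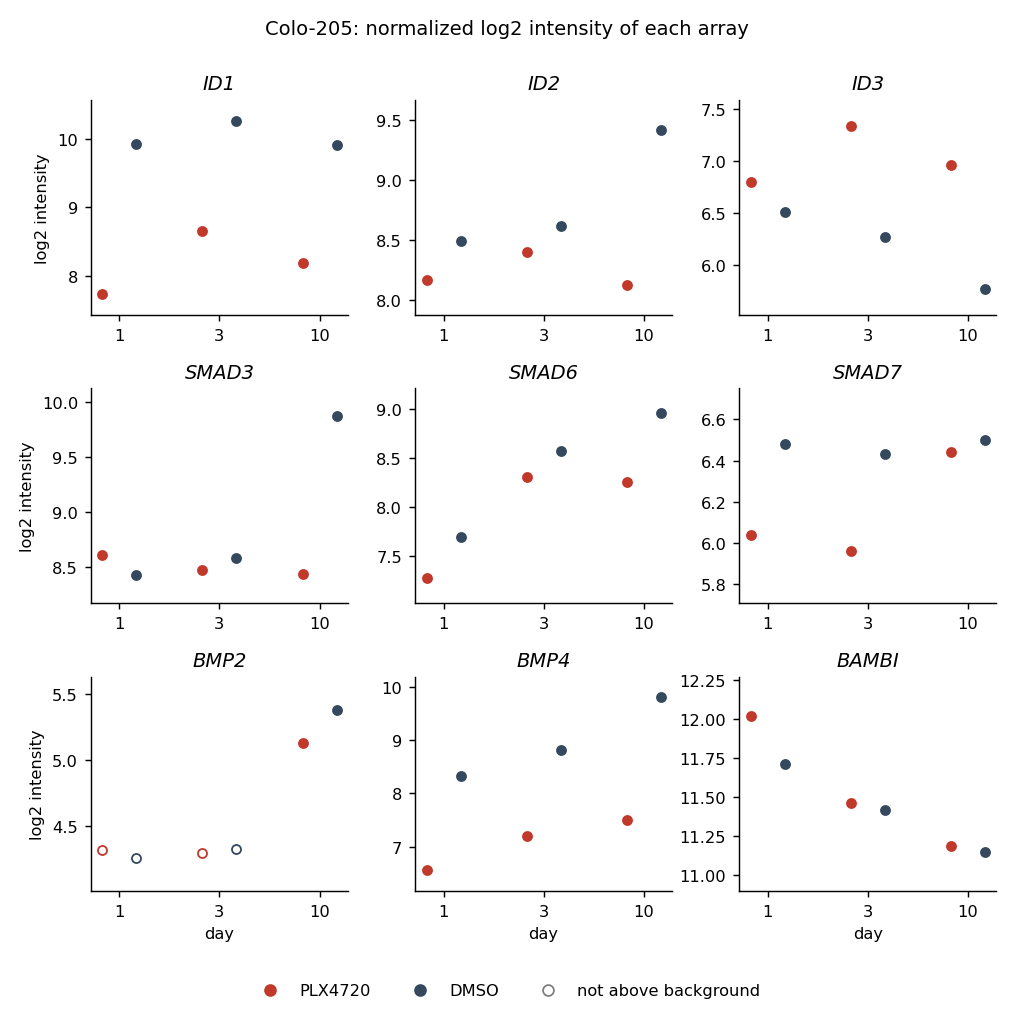
Each panel plots the normalized log2 intensity of 1 gene on the 6 Colo-205 arrays against the day, 1 array per treatment and day, with PLX4720 left of DMSO and open circles for arrays not above background. ID1 (7.73 to 8.66 with PLX4720, 9.91 to 10.26 with DMSO) and BMP4 (6.56 to 7.51 with PLX4720, 8.33 to 9.80 with DMSO) are separate at all days, and ID3 is separate the other way round.

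Other genes of the pathway were counted in 8 lists, in the HT29 mean of days unless a day is named. Of the 89 genes listed, 54 were tested, and 16 were higher and 11 lower (50%), where 32.8% of all genes passed. The lists were chosen with earlier results of these data known. ENG, SMAD1, ATOH8 and ATOH1 also met the filter through 1 treatment alone. The 50% is therefore a count and no independent support for a change of the pathway. Of 16 other ligands, 5 could be tested, with 1 higher and 1 lower and a median of -0.16. GDF15, a ligand induced by cell stress, rose by 0.71 ± 0.08 (adjusted p = 0.000205), and GDF11 fell by 0.84 ± 0.11 (adjusted p = 0.000485). Of 15 receptors and co-receptors, 9 were tested, with 2 higher and 1 lower and a median of 0.15. The co-receptor TGFBR3 rose by 0.64 ± 0.09 (adjusted p = 0.000782) and the activin receptor ACVR1B by 0.49 ± 0.10 (adjusted p = 0.00438). The TGFBR3 groups were separate at days 1 and 3 but overlapped at day 8 (9.33 to 9.38 with PLX4720, 9.22 to 9.45 with DMSO). The co-receptor ENG was above background on none of 6 arrays with PLX4720 and on 5 of 6 with DMSO. It was at least 1.56-fold lower with the inhibitor and was tested only through its DMSO arrays. All 5 other SMADs were tested and 1 was higher, with a median of 0.20. SMAD1, a carrier of BMP signals, was above background on 2 of 6 arrays with PLX4720, both of day 3, and none of 6 with DMSO. Over the days it was at least 1.2-fold higher. It was tested only through the group where it was high, so its call is not independent of the filter.

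Of 12 secreted antagonists, 5 were tested and 2 were higher, with a median of 0.14. SOSTDC1, which blocks BMP and WNT signals, rose by 1.20 ± 0.12 in the mean of days (adjusted p = 8.49e-05), with 0.20 ± 0.20 at day 1 (adjusted p = 0.526), 1.10 ± 0.20 at day 3 (adjusted p = 0.00712) and 2.30 ± 0.20 at day 8 (adjusted p = 9.71e-05). TWSG1, a BMP-binding protein, rose by 0.47 ± 0.11 (adjusted p = 0.00844). Of 10 intracellular SMAD regulators, 9 were tested, with 1 higher and 2 lower and a median of -0.35. PMEPA1, a TGF-beta-induced membrane protein that dampens SMAD2 and SMAD3, fell by 0.96 ± 0.07 (adjusted p = 1.12e-05), with 7.64 to 7.90 on arrays with PLX4720 against 8.53 to 9.04 with DMSO. The co-repressor gene TGIF2 fell by 0.65 ± 0.08 (adjusted p = 0.000343), and NEDD4L, a ubiquitin ligase, rose by 0.65 ± 0.12 (adjusted p = 0.00303). The TGIF2 groups were farthest apart at day 1 (6.41 to 6.63 with PLX4720, 7.89 with DMSO). At day 8 they lay close (8.29 to 8.30 with PLX4720, 8.41 to 8.58 with DMSO).

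Of 12 other TGF-beta target genes, 8 were tested, with 1 higher and 3 lower and a median of 0.10. The transglutaminase gene TGM2 fell by 1.47 ± 0.07 (adjusted p = 1.79e-06), the matrix protein gene TGFBI by 1.29 ± 0.07 (adjusted p = 3.89e-06) and the AP-1 subunit gene JUNB by 0.71 ± 0.12 (adjusted p = 0.00229). CCN2, also a target of YAP, rose by 1.07 ± 0.09 (adjusted p = 3.82e-05). Of 10 other BMP target genes, 6 were tested, with 3 higher and 2 lower and a median of 0.37. GATA2 fell by 1.09 ± 0.12 (adjusted p = 0.000177) and RUNX2 by 1.04 ± 0.18 (adjusted p = 0.00249), while MSX1 rose by 0.47 ± 0.11 (adjusted p = 0.0116), with 5 of 6 arrays above background for PLX4720 and 3 of 6 for DMSO. ATOH8 was above background on 3 of 6 arrays with PLX4720 and none with DMSO. It was at least 1.28-fold higher and was tested only through its PLX4720 arrays.

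**Figure D4:**
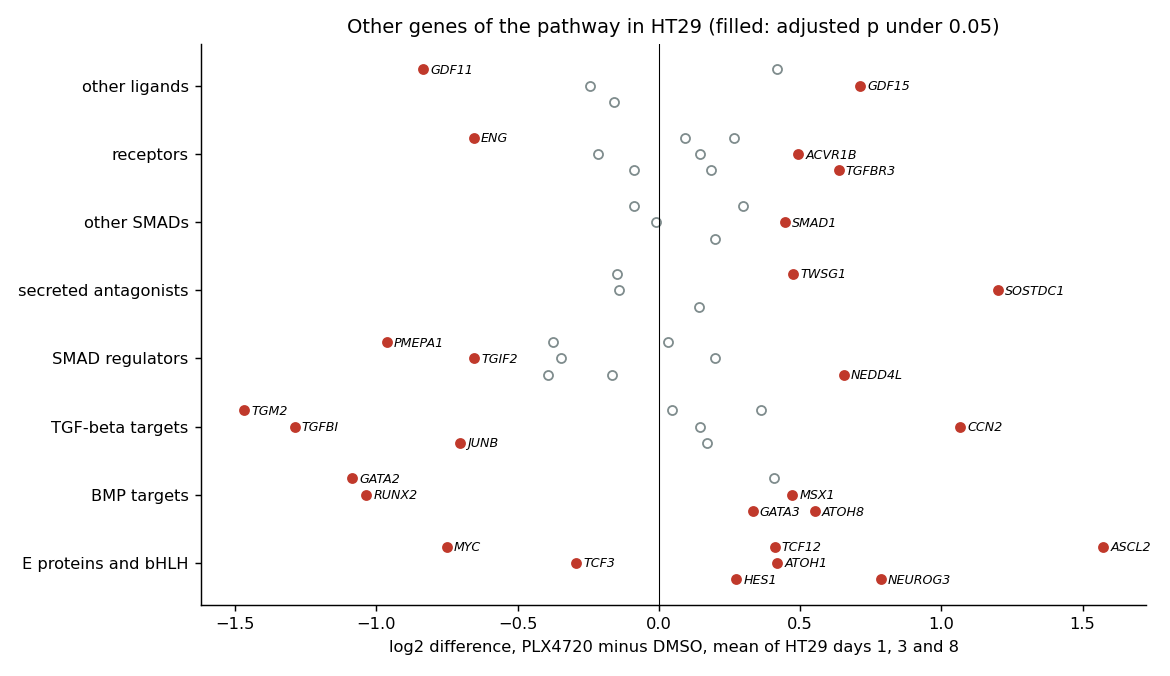
Each point is a tested gene of 1 of the 8 lists, placed by its fitted log2 difference in HT29, PLX4720 minus DMSO, averaged over days 1, 3 and 8; filled and named points passed an adjusted p of 0.05. Named genes lie on both sides of 0 in 6 of the 8 lists, and ENG, SMAD1, ATOH8 and ATOH1, not above background in 1 treatment, have only a bound on their fold.

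All 7 tested genes of the 9 E proteins and other helix-loop-helix factors were called, 5 higher and 2 lower, with a median of 0.41, where 32.8% of all genes passed. The filter was met through PLX4720 arrays alone for ATOH1 and mainly for NEUROG3, so their direction was largely set by it. The count of 7 is therefore given as a description. ASCL2, a factor of intestinal stem cells, rose by 1.57 ± 0.09 (adjusted p = 4.16e-06), with 2.29 ± 0.16 at day 1 (adjusted p = 3.36e-05) and 0.47 ± 0.16 at day 8 (adjusted p = 0.073). NEUROG3, which drives endocrine fate, was called higher (adjusted p = 0.00513), with 4 of 6 arrays above background for PLX4720 (4.70 to 6.15) and 1 of 6 for DMSO (4.24 to 5.12). ATOH1, which drives secretory fate, was above background on 2 of 6 arrays with PLX4720, both of day 8, and none with DMSO, at least 1.21-fold higher. MYC fell by 0.75 ± 0.12 (adjusted p = 0.00185), with -1.49 ± 0.22 at day 1 (adjusted p = 0.00154) and 0.30 ± 0.22 at day 8 (adjusted p = 0.409). In Colo-205, 1 of 48 tested genes of these 8 lists was called (2.08%), where 1.37% of all genes passed. PMEPA1 fell by 2.83 ± 0.20 (adjusted p = 0.00973), with 5.42, 4.96 and 5.82 for PLX4720 at days 1, 3 and 10, against 7.86, 7.94 and 8.87 for DMSO.

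The genes whose course over the 6 HT29 groups was closest to that of ID1 were GRPEL1, SNORD110, TTLL12, PLSCR3 and SYT15. Closeness was the root mean square difference of the centred group means, over 12 arrays, and was 0.053 for GRPEL1, 0.068 for SNORD110, 0.084 for TTLL12, 0.085 for PLSCR3 and 0.091 for SYT15, where ID1's own course had an SD of 0.373. They were picked for this likeness, which is given as a description.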

How the data were processed

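Total RNA of 18 cultures was hybridised to Illumina BeadChips, 1 cell line on each of 2. Per the file headers, the deposited table gave each of 47323 probes a linear, non-normalized intensity and a detection p-value per array. No source used here states how the authors obtained the detection p-value. The header of the first PLX4720 replicate of HT29 day 8 carries the word mean, and it was used as 1 array. The authors' processed intensity table, of unstated normalization, was set beside it. Columns were assigned to samples by name, 0 stayed unmapped, and 4 probes with missing values were left out.

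With limma 3.58.1 in R 4.3.3, normexp background correction used the background inferred from the detection p-values, with an offset of 16, then quantile normalization over 18 arrays and log2. The offset pulls differences of dim probes towards 0, and the correction enlarges them. A fit kept probes detected (p under 0.01) on 2 or more of its arrays and, for each gene, the probe with the highest mean. Names came from the platform annotation updated through Entrez identifiers (30113 probes with 1 symbol, 8 with several, 17202 with none), and 120 of 124 listed genes were on the array. Where no array of a group or treatment was above background, a bound is given, as at least N-fold against the lowest signal above background. Where only some arrays were, a fitted size may be printed, and it then rests partly on background.

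HT29 was fitted as 6 group means (12675 genes), Colo-205 with day as a block (11575 genes), and the line difference as a treatment-by-line term with 1 baseline per line and day (13659 genes), with lmFit, eBayes and Benjamini-Hochberg adjustment, two-sided. The HT29 fit was tested on simulated log2 values with every probe kept. Background correction, normalization, the filter, the choice of probe and the other fits were not covered by that test. The members and lists were chosen with earlier results of these data known. Besides the members, the genes named are up to 4 of each list with the smallest adjusted p in the HT29 mean of days, DUSP6, and the 5 closest in course to ID1. Same-numbered HT29 replicates did not deviate together (correlations of replicate differences from -0.020 to 0.130 over 15 pairs of groups), so no pairing was used. Alternatives covered background correction, normalization, filter, probe choice, moderation, arrays left out and a replicate block. Of the 10 members, 9 had an upstream window in RefSeq (not BMP2).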

Additional observations from a re-analysis of the deposited data

Results flagged for a closer look

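For 4 results the difference between 2 treatment effects passed its own test. The ID1 effect was lower in Colo-205 than in HT29 (-1.15 ± 0.18, adjusted p = 0.00251), with -1.84 ± 0.19 in Colo-205 and -0.69 ± 0.06 in HT29. It was lost with the mean of both ID1 probes (-0.41, adjusted p = 0.286), and the part of the dimmer probe in it was not tested further. The BMP4 effect was lower in Colo-205 than in HT29 (-1.86 ± 0.31, adjusted p = 0.00353), with -1.89 ± 0.20 in Colo-205 and -0.03 ± 0.19 in HT29. Each effect was measured within a BeadChip, but line, medium and BeadChip cannot be told apart as the source of either difference. Within HT29, the BMP2 effect was lower at day 8 than at day 1 (fitted value -2.13, adjusted p = 0.000725). That fitted value is no exact size, since BMP2 was above background on 1 of 2 PLX4720 arrays and neither DMSO array of day 1. The BAMBI effect was higher at day 8 than at day 1 (1.00 ± 0.18, adjusted p = 0.00621).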

How the results depend on the processing

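Over all settings, 24 called results of the 10 genes were refitted 522 times: 496 kept their call and direction, 26 lost the call and 0 turned in sign, and 17 of the 24 kept it under every setting run. The number of genes called at HT29 day 1 was 1 in place of 2 with no filter on dim probes, with every probe on its own and with only the 4 arrays of the day, because SMAD3 was lost (adjusted p = 0.0505 to 0.0969). For the change in effect between days 1 and 8 it was 4 in place of 2 with no background correction and with the authors' processed table, where ID1 (0.40 in both) and SMAD3 (-0.57 and -0.60) also passed. In Colo-205 it was 0 in place of 2 with no filter on dim probes (ID1 adjusted p = 0.0683, BMP4 adjusted p = 0.0742) and 1 with the mean of a gene's probes, and for the line difference it was 1 in place of 2 with the mean of a gene's probes. Leaving out 1 HT29 array, or 1 Colo-205 day, gave 1 to 2 genes at day 1, 1 to 2 at day 3, 3 to 4 at day 8, 3 to 3 in the mean of days, 2 to 2 for the day effects, 3 to 5 over time with DMSO, 3 to 3 over time with PLX4720, 0 to 2 in Colo-205 and 2 to 3 for the line difference. With the replicate block the counts were 2 at day 1, 2 at day 3, 4 at day 8 and 3 in the mean of days, and it changed no other call of the members. ID1 at day 8 was also lost with the mean of its probes (-0.46, adjusted p = 0.106) and with only the 4 arrays of the day (adjusted p = 0.0683). Across all genes, the Colo-205 count of 158 was 18 with no filter, 543 with an intensity trend and robust prior, and 0 to 470 when 1 day was left out. Signal over background limits BMP2, ID3 and the second ID1 and SMAD7 probes: without background correction the BMP2 increase over time with PLX4720 was 0.70, against 1.90 with it. The causes of the other changes were not tested.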

Other observations

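The same test of the line difference, run over the 8 lists of other pathway genes, called 6 of 60 genes tested (10%), 2 with a higher and 4 with a lower effect in Colo-205, where 3.98% of all genes passed. The lists were chosen with earlier results of these data known, and the genes named here after their values were seen. GDF15 differed by -1.42 ± 0.26 (adjusted p = 0.00708), with -0.71 ± 0.32 in Colo-205 (adjusted p = 0.319) and 0.71 ± 0.08 in HT29. The Colo-205 levels with PLX4720 were 9.29, 8.62 and 9.61 at days 1, 3 and 10, against 10.54, 9.71 and 9.39 with DMSO. The sign at day 10 was thus opposite to that at days 1 and 3. MSX1 differed by -1.46 ± 0.27 (adjusted p = 0.00644), with -0.99 ± 0.26 in Colo-205 (adjusted p = 0.145) and 0.47 ± 0.11 in HT29. In HT29 it was above background on 5 of 6 arrays with PLX4720 and 3 of 6 with DMSO. Its HT29 value and its line difference thus rest partly on background. INHBB, a subunit of activins and inhibins, differed by 1.20 ± 0.24 (adjusted p = 0.0127), with 0.95 ± 0.23 in Colo-205 (adjusted p = 0.123) and -0.25 ± 0.09 in HT29 (adjusted p = 0.0596), where it was above background on 2 of 6 arrays of each treatment. TGFBR2, the type II receptor for TGF-beta, differed by -0.85 ± 0.18 (adjusted p = 0.0166), with -1.06 ± 0.19 in Colo-205 (adjusted p = 0.0653) and -0.21 ± 0.08 in HT29 (adjusted p = 0.0537). PMEPA1 differed by -1.86 ± 0.18 (adjusted p = 4.34e-05), with a fall in both lines. TGM2 was also called (adjusted p = 0.0282), but it was above background on none of the Colo-205 arrays, so that its difference has no measured size.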
